A study of Mus musculus with 149 samples.

Results

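The glutathione transferases outside the mu class that the deposited table lists by these names were described here: the alpha class genes Gsta1, Gsta2, Gsta3 and Gsta4, the pi class gene Gstp1, the theta class genes Gstt1, Gstt2 and Gstt3, the zeta class gene Gstz1 and the microsomal transferase Mgst1. They were taken by symbol, and all 10 were found among the 20308 mouse genes of the table. All 10 were also above 0 in at least 20% of the cells, the rule that 8813 genes met and that sets the background used below. RNA had been measured in 149 single cells of a hepatocyte preparation from the liver of 1 wild-type male C57BL/6 mouse of 8 weeks, dissociated by perfusion and enriched by repeated low-speed spins. No group carried a transgene or a treatment. The groups are the trap sizes of the Fluidigm C1 capture chips: 80 cells came from large traps (17 to 25 µm), 30 from medium traps (10 to 17 µm) and 39 from small traps (5 to 10 µm). Since all cells came from 1 animal and each chip is 1 sample, no test was possible, no p-value is given, and every SD below is a spread between cells and not between animals.

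Glutathione transferases join the tripeptide glutathione to electrophilic compounds, which makes drugs, toxins and products of lipid peroxidation more soluble and ready for export. Most classes are soluble dimers, while Mgst1 sits in the membranes of the endoplasmic reticulum and the outer mitochondrial membrane and also reduces lipid hydroperoxides. The liver is rich in these enzymes, and hepatocytes near the central vein are known for a higher capacity for xenobiotic metabolism than those near the portal tract. Several transferase genes are known targets of the stress-responsive factor NRF2, which binds antioxidant response elements.

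By the GENCODE annotation of mm10, the build that the submitters' processing notes name, Gsta3 lies at chr1:21240589-21265661 and Mgst1 at chr6:138140316-138156755, both on the forward strand. Gstp1 lies on the reverse strand at chr19:4035407-4037985. The other alpha genes stand together on chromosome 9, with Gsta4 at chr9:78182774-78209349, Gsta1 at chr9:78230656-78242684 and Gsta2 at chr9:78331018-78355788. The theta genes are neighbours on chromosome 10: Gstt3 at chr10:75774115-75781414, Gstt1 at chr10:75783813-75798584 and Gstt2 at chr10:75831114-75837424. Gstz1 lies at chr12:87147165-87164723. All 10 are annotated as protein coding.

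Sequences before the RefSeq start sites are shown for the 3 genes whose values ran along the cell order described below. RefSeq promoter entries (GRCm38.p6) matched 8 of the 10 genes, and none was used for Gsta4 and Gstt2. The 250 bases upstream of each start were searched on both strands for the antioxidant response element core TGACNNNGC, the AP-1 site TGANTCA, the TCF/LEF site TTCAAAG and the TATA box TATAAA. In all 32851 windows of the same length, these letters were present in 10.2%, 6.75%, 4.46% and 12.4%. Gsta3 is shown over its whole window (chr1:21240335-21240584, forward strand), with the response element core at positions -121 to -113 from the start in capitals. Gstp1 is shown over the 30 bases around an AP-1 match at -74 to -68 (chr19:4037968-4037997, reverse strand), a palindromic pattern that matches on both strands. Mgst1 is shown over the 30 bases around a response element core on its reverse strand at -56 to -48 (chr6:138140461-138140490, forward strand printed). GENCODE places the starts of Gstp1 and Mgst1 further upstream. The bases shown for Mgst1 lie wholly, and those for Gstp1 in part, inside the annotated gene. Capitals mark the matched letters in each.
Gsta3: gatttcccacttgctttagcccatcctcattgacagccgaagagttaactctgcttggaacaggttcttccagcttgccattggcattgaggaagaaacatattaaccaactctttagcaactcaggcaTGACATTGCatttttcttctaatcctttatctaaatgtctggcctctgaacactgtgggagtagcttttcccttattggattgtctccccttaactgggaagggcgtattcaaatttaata
Gstp1: ctccaacgtgtTGAGTCAgcatccggggcg
Mgst1: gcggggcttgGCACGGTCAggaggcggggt
The only other match among the 8 genes was a TATA box pattern in Gsta2, and no window of these genes held the TCF/LEF letters. A match of letters is a description of the window and no evidence of binding.

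Near-identical copies limit what 2 pairs can show. The transcripts of Gsta1 and Gsta2 were identical at 97.2% of 870 aligned bases, with a longest identical run of 253 bases. Gstp1 and its neighbour Gstp2 were identical at 98.2% of 707 aligned bases, with a run of 369. The submitters' processing notes name RSEM, a tool that divides reads fitting several transcripts by a statistical estimate, so the split within each pair is uncertain. Gstt1 and Gstt3 were less alike, at 78.2% of 522 aligned bases.

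The chips differed in a way that touches every level below. ERCC spike-ins, synthetic RNAs added to the lysis mix, took a median of 3.66% of a large-chip cell's summed values, against 82.7% for medium and 82.8% for small traps. They took 50% or more in 16 of 80, 23 of 30 and 27 of 39 cells. A median of 7389.5, 2306.5 and 3087 mouse genes was above 0 in the respective chips. Values are therefore given for all cells and again for those whose spike-in share was below 50%, numbering 64, 7 and 12. Those cells still differed between chips, with a median spike-in share of 3.25%, 6.12% and 28.1%. A median of 7543, 7107 and 4389.5 mouse genes was above 0 in them. Their mouse values summed to a median of 1760470, 1808990 and 2798040 per cell, and the values below are not scaled to these sums unless stated. All 6 hepatocyte markers were used to check the labelled cell type, and at least 3 of them reached a value of 10 in every one of the 149 cells. Markers of another liver cell type (at least 3 of a list at 10 or more) were present in 10 large-chip, 5 medium-chip and 3 small-chip cells. In the large chip these were 7 cells with sinusoidal endothelial and 3 with bile duct markers. Of the 5 Kupffer markers matched, 2 were at 0 in all large-chip cells, Clec4f and Vsig4, and the sum of the 5 reached 152. At least 3 Kupffer markers were present in 3 medium-chip cells and 1 small-chip cell, with summed values up to 42799 and 52425. Stellate markers were present in 2 medium-chip cells and endothelial markers in 2 small-chip cells by the same rule.

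Gstp1 and Mgst1 dominated the transferases. In the 64 large-chip cells with a low spike-in share, the median normalised value per kilobase of transcript was 16337 for Gstp1 and 13294 for Mgst1. Gsta3 followed at 1079, Gstz1 at 476, Gstt1 at 201 and Gsta4 at 145. Gsta2 stood at 19.2, Gstt2 at 11.8, Gstt3 at 1.65 and Gsta1 at 0. The step from Mgst1 to Gsta3 was the clearest, since Mgst1 was the higher in 64 of 64 cells. Gstp1 was above Mgst1 in 43 of 64 cells, so the order of the leading pair did not hold in every cell. Undivided by length, the medians of this pair stood the other way, at 13413 for Gstp1 and 15514 for Mgst1. Gsta3 was above Gstz1 in 54 cells, Gstz1 above Gstt1 in 58 and Gstt1 above Gsta4 in 45. Gsta2 was above Gstt2 in 33 of the 64 cells, and these 2 genes could not be ordered. Gstp1 and Mgst1 together made up a median of 90.5%, 90.6% and 91.9% of the summed value of the 10 genes, from the largest to the smallest traps. All 10 genes took a median of 1.81%, 1.14% and 1.02% of the mouse values of a cell. Both sets of shares are over all cells. With a low spike-in share the 10 genes took a median of 1.82%, 1.97% and 1.196%. The medium chip was thus not below the large chip in those cells. Gstp1 and Mgst1 made up a median of 90.1%, 89.6% and 90.6% of the 10 genes there.

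Gstp1, a cytosolic enzyme that also binds signalling kinases, and Mgst1 were above 0 in all 149 cells. The value of Gstp1 ran from 172 through a median of 12879 to 49048 among large-chip cells, from 236 through 3927 to 80305 among medium-chip cells and from 59.3 through 1926 to 24987 among small-chip cells. Mgst1 ran from 1085 through 13989 to 31274, from 246 through 5368 to 24253 and from 108 through 4817 to 39312. The ranges of the chips overlapped for both genes, with the lowest medians in the small chip. Among cells with a low spike-in share the medians lay closer: 13413, 15655 and 13240 for Gstp1, and 15514, 15035 and 10673 for Mgst1. The median summed mouse value of these cells was highest in the small chip, and the gene medians are not scaled to it.

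Gsta3, an alpha enzyme known in the mouse for detoxifying aflatoxin epoxide, was above 0 in 80 of 80 large-chip, 27 of 30 medium-chip and 39 of 39 small-chip cells. Its values ran from 6.01 through a median of 1393 to 7483, from 0 through 215 to 7274 and from 4.28 through 125 to 9285 in that order. The chips overlapped over nearly their whole ranges. With a low spike-in share its medians were 1572, 2011 and 803. Gstz1, which isomerises maleylacetoacetate in the breakdown of tyrosine, had medians of 731, 119 and 17.9 over all cells and of 788, 883 and 849 with a low spike-in share. Gstt1, a theta enzyme that acts on small halogenated compounds, had medians of 183, 13.98 and 18.6 over all cells and of 222, 519 and 237 with a low spike-in share. The large-chip medians of these 2 genes were thus far above the other chips over all cells, and not above them once cells of high spike-in share were left out. The cells that remained still differed between chips in spike-in share, in genes above 0 and in summed mouse values.

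The remaining genes were seen in part of the cells. Gsta4, an alpha enzyme that prefers the lipid peroxidation product 4-hydroxynonenal, was above 0 in 67 of 80 large-chip cells (83.8%, exact Clopper-Pearson 95% interval 73.8% to 91.1%), 23.3% of 30 cells from medium traps (9.93% to 42.3%) and 28.2% of 39 from small ones (15.001% to 44.9%). With a low spike-in share these were 60 of 64, 7 of 7 and 9 of 12 cells. Of the 80, 30 and 39 cells of the respective chips, Gstt2 was above 0 in 53, 9 and 11 and Gstt3 in 41, 5 and 7. Gsta2 was above 0 in 51, 11 and 6 cells, and its near copy Gsta1 in 29, 12 and 3. Of the 64, 7 and 12 cells of low spike-in share, Gstt2 was above 0 in 52, 5 and 7 and Gstt3 in 41, 5 and 3. Gsta2 was above 0 in 48, 7 and 5 of them, and Gsta1 in 28, 5 and 2. The intervals given for Gsta4 cover counting of cells only, and the read depth behind a 0 is unknown.

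**Figure D1:**
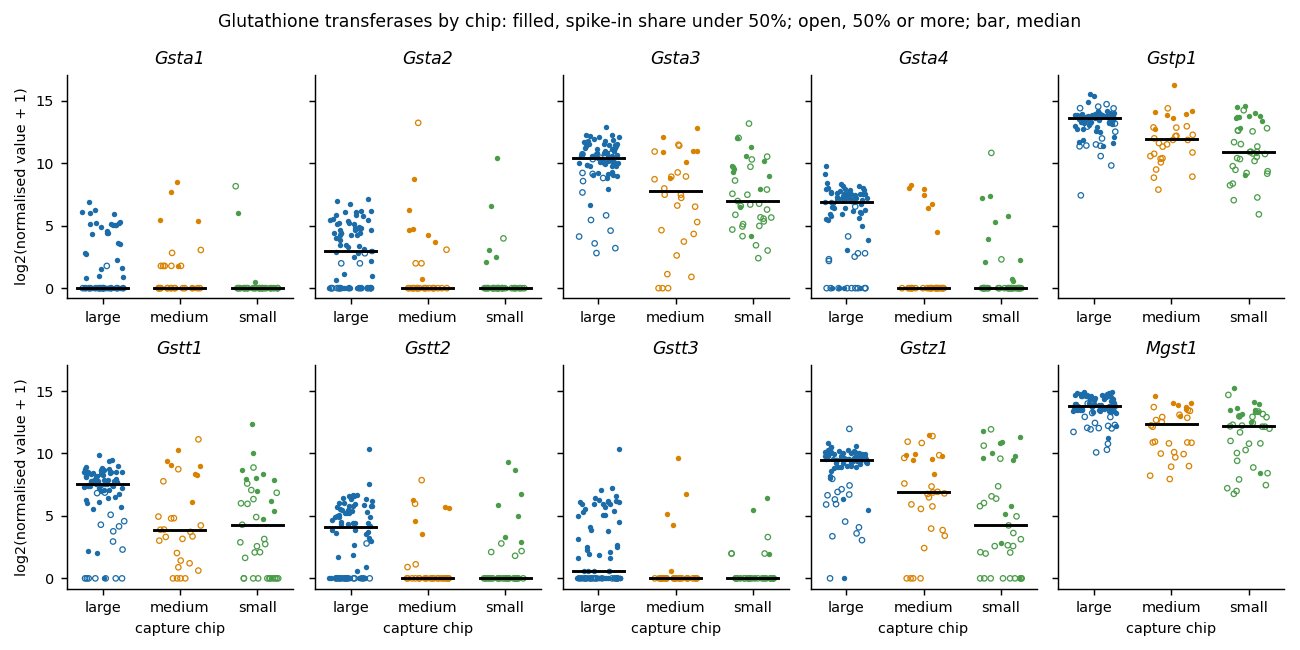
Normalised value of each of the 10 transferase genes in every cell, on a log2(value + 1) axis, by capture chip (80, 30 and 39 cells). Filled points are cells whose spike-in share was below 50%, open points cells at 50% or more, and bars the median over all cells; Gstp1 and Mgst1 stand highest in every chip, and most zeros of Gsta4, Gstt1 and Gstz1 are open points.

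Single cells decided several chip means. Gsta2 had a value of 9678 in medium-chip cell 19, a cell with 94.96% spike-ins and 1215 genes above 0, and that cell held 94.1% of the summed Gsta2 value of its chip. The medium-chip mean of Gsta2 was 343 ± 1765 (SD, 30 cells) with it and 20.9 ± 80.9 without it. Gstt1 and Mgst1 both had their highest values of all cells, 5307 and 39312, in small-chip cell 26, and without it the small-chip mean of Gstt1 went from 238 to 105. Gsta3 and Gsta4 were both highest in small-chip cell 18, at 9285 and 1823, and without it the Gsta4 mean went from 57.9 to 11.5. Gstt3 was highest in large-chip cell 24 at 1297, which held 45.96% of the large-chip sum of that gene.

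Between chips, a gene was counted as higher when the ratio of the means, with a pseudocount of 1 added to each, reached at least 2-fold. Against the medium chip, 3 of the 10 genes were higher in the large chip (Gsta4, Gstt2 and Mgst1), where 37.5% of all 8813 genes were, and 2 were higher in the medium chip (Gsta1 and Gsta2), where 12.7% of all genes were. Mgst1 averaged 15256 ± 7872 in the large and 6804 ± 6382 in the medium chip, a ratio of 2.24-fold. Both medium-chip calls came from single cells: without the highest cell of each gene the log2 ratio of large over medium was -0.27 for Gsta1 and -0.19 for Gsta2, against -1.08 and -4.06 with it. Against the small chip, 5 were higher in the large chip (Gsta3, Gsta4, Gstp1, Gstt3 and Mgst1; 41.9% of all genes) and 0 in the small chip (12.8% of all genes). Medium against small gave 3 higher in the medium chip (Gsta1, Gsta2 and Gstt3; 27.7% of all genes) and 0 in the small chip (23.3% of all genes). Counts this close to the background shares, in a set of 10 genes, are no result about the transferases. For every gene counted except Mgst1, the difference of the means was smaller than the larger of the SDs between cells.

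Restricting the comparison to cells with a low spike-in share changed which genes were counted. Large against medium then gave 0 of 10 genes higher in the large chip (24.8% of all genes) and 4 in the medium chip (Gsta1, Gsta2, Gstt1 and Gstt3; 17.3%), with 7 medium-chip cells. Without the highest medium-chip cell of each gene, 1 of these 4 counts was left, Gsta1: cell 15 held 73.2% of Gsta2, and cell 21 held 83.2% of Gstt3 and 33.6% of Gstt1. Mgst1 averaged 17600 ± 6749 in the large, 15385 ± 4940 in the medium and 12661 ± 9503 in the small chip. Gstp1 averaged 13387 ± 7400, 23770 ± 25225 and 12736 ± 7340, and the medium-chip value rested on cell 21, at 80305. The differences of Mgst1 and Gstp1 between chips were smaller than the spread between cells. Large against small gave 3 higher in the large chip (Gsta1, Gsta4 and Gstt3; 26.7%) and 2 in the small chip (Gsta2 and Gstt1; 25.0%). Without the highest cell of each gene in the chip with the higher mean, these were 2 and 0: small-chip cell 36 held 92.4% of Gsta2, and cell 26 held 65.5% of Gstt1. Medium against small gave 4 higher in the medium chip (Gsta1, Gsta3, Gsta4 and Gstt3; 26.0%) and 1 in the small chip (Gstt2; 30.4%), or 3 and 0 without the highest cells, where Gsta3 lost its count without cell 21 and Gstt2 without small-chip cell 31. Chip, trap size and spike-in share moved together here, and their parts cannot be told apart.

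The second axis was the order in which the deposited table lists the cells. It mixes the chips and does not follow the labels' numbering. The name of the table mentions a method for ordering cells, but the labels do not describe how the order was made, nor whether the values of these genes entered it. Within the large chip the order had a Spearman rho of 0.94 with a landmark score, in which the averaged z-scores of 6 periportal genes were subtracted from those of 6 pericentral ones, none of them a transferase. The first cells were thus at the periportal and the last at the pericentral end of this score. The rho was 0.91 in the medium and 0.82 in the small chip. The 80 large-chip cells were cut into 5 blocks of 16 along the order. Cells with a spike-in share of 50% or more were uneven among them, with 1 in each of the first and the second block, 9 in the middle block, 5 in the fourth and 0 in the last.

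Gsta3 and Mgst1 were higher at the pericentral end and Gstp1 was lower there. The first 16 large-chip cells had Gsta3 values from 6.01 through a median of 1007 to 3998, and the last 16 from 2232 through 3398 to 7483. The ends overlapped through 1 cell: 15 of the first 16 were below every one of the last 16, and the exception was large-chip cell 24. The mean went from 1126 ± 863 to 3755 ± 1256 (SD, 16 cells each), a ratio of 3.33-fold and a log2 of 1.74. The rho of Gsta3 with the order was 0.58 over the 80 cells and 0.74 over the 64 with a low spike-in share. Over the 80 cells, 0.386% of all 8813 genes had a higher rho. The medians of the 5 blocks were 1007, 1061, 1105, 1766 and 3398, with 9 of 16 cells of the middle block at a high spike-in share. In cells of low spike-in share, cut into 5 blocks of 12 or 13, the medians were 995, 1034, 1538, 2733 and 3315, higher from the middle block on. Without cell 24 the log2 between the ends was 2.00.

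Mgst1 values ran from 4121 through a median of 12356 to 17207 in the first 16 cells and from 13745 through 25066 to 31274 in the last 16. In 15 of the last 16 cells the value was above every one of the first 16. The means were 12462 ± 3078 and 24560 ± 4654, a ratio of 1.97-fold, just short of the 2-fold rule. Its rho with the order was 0.45 over all cells and 0.65 with a low spike-in share, and 0.704% of all genes had a higher rho than the former. The block medians were 12356, 12725, 11864, 17749 and 25066. With a low spike-in share they were 12337, 13393, 12762, 22704 and 25356, so Mgst1 was level through the middle block and higher beyond it in both sets of cells.

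Gstp1 ran the other way. Its values went from 11378 through a median of 14122 to 21631 in the first 16 cells and from 2618 through 8097 to 15868 in the last 16. In 12 of the last 16 cells the value was below every one of the first 16, and 2 of the first 16 were above every one of the last. The means were 14350 ± 2388 and 8871 ± 4184, a log2 of -0.69, which does not reach 2-fold. The rho was -0.50 over all cells and -0.52 with a low spike-in share, and 0.987% of all genes had a lower rho than the former. The block medians were 14122, 15116, 12773, 9018 and 8097. The spread between cells was wider at the pericentral end, where the SD was the larger against a lower mean.

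The other genes showed less. Gstt1 values ran from 18.7 through 165 to 439 in the first and from 109 through 348 to 682 in the last 16 cells. The ends overlapped, with 13 of the last 16 above the median of the first. The log2 of its means was 0.83 and its rho 0.19, or 0.34 with a low spike-in share. Gstz1 ran from 120 through 773 to 1849 and from 449 through 781 to 1466, with a log2 of 0.16 and a rho of 0.01. The ends of Gstz1 overlapped almost fully, and 8 of the last 16 cells were above the median of the first. Gsta4, Gsta2 and Gstt2 had log2 values of -0.17, -0.59 and -0.32 and rho values of -0.13, -0.09 and 0.03. Gsta1 averaged 6.78 ± 12.5 and 5.09 ± 16.8, a log2 of -0.35 with a rho of -0.08, but large-chip cell 8, at 67.5, held 82.9% of the sum of the last 16 cells. Without it the log2 of Gsta1 was -2.01. It was -2.85 with a low spike-in share, -3.20 without cells of large sums and -2.13 without cells with other-type markers, but 0.55 with ends of 20 cells.

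Gstt3 gave opposite signs by mean and by rank. Its mean was 106 ± 321 in the first and 36.1 ± 31.99 in the last 16 cells, a log2 of -1.52, while its rho with the order was 0.29. The median was 0 in the first and 27.5 in the last 16 cells. Large-chip cell 24, at 1297, held 76.8% of the summed value of the first 16 cells, and without it their mean was 26.1 and the log2 was 0.45 towards the last cells. The call of Gstt3 at the periportal end thus rests on this cell. It is also a cell with markers of another type: 4 of 5 bile duct markers stood at 10 or more, with a summed value of 28186, beside all 6 hepatocyte markers. The part of these transcripts in its values was not tested.

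By the 2-fold rule, 1 of the 10 genes was higher in the last 16 cells (Gsta3), where 7.44% of all 8813 genes were, and 1 was higher in the first 16 (Gstt3), where 21.9% were. The median log2 of the 10 genes was -0.24 and that of all genes -0.36. The median rho was 0.02 for the 10 genes and -0.03 for all genes. As a set the transferases outside the mu class thus stood near the median of all genes. In cells of low spike-in share, with 13 cells at each end, 1 gene was higher in the last cells (Gsta3; 7.95% of all genes) and 2 in the first (Gsta1 and Gstt3; 26.0%). Beside these values, the summed hepatocyte markers had a median of 117286 in the first and 62379 in the last 16 cells, and at least 3 endothelial markers were present in 0 and 1 of them, with summed values from 0 to 29.2 and from 0 to 510 and Pecam1 at 0 in the first cells. Bile duct markers ran the other way: at least 3 of 5 were present in 1 of the first and 0 of the last 16 cells, with summed values from 2.97 through a median of 77.2 to 28186 and from 0 through 5.06 to 138, and Krt19 and Epcam were at 0 in the last cells. The part of these markers in the results was not tested. Without the cells that held other-type markers, the log2 was 2.00 for Gsta3, 1.04 for Mgst1 and -0.77 for Gstp1. Scaled to the mouse values of each cell, it was 1.89, 0.97 and -0.84. With the landmark score as the axis it was 1.42, 0.67 and -1.09, which puts Gstp1 past the 2-fold rule.

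**Figure D2:**
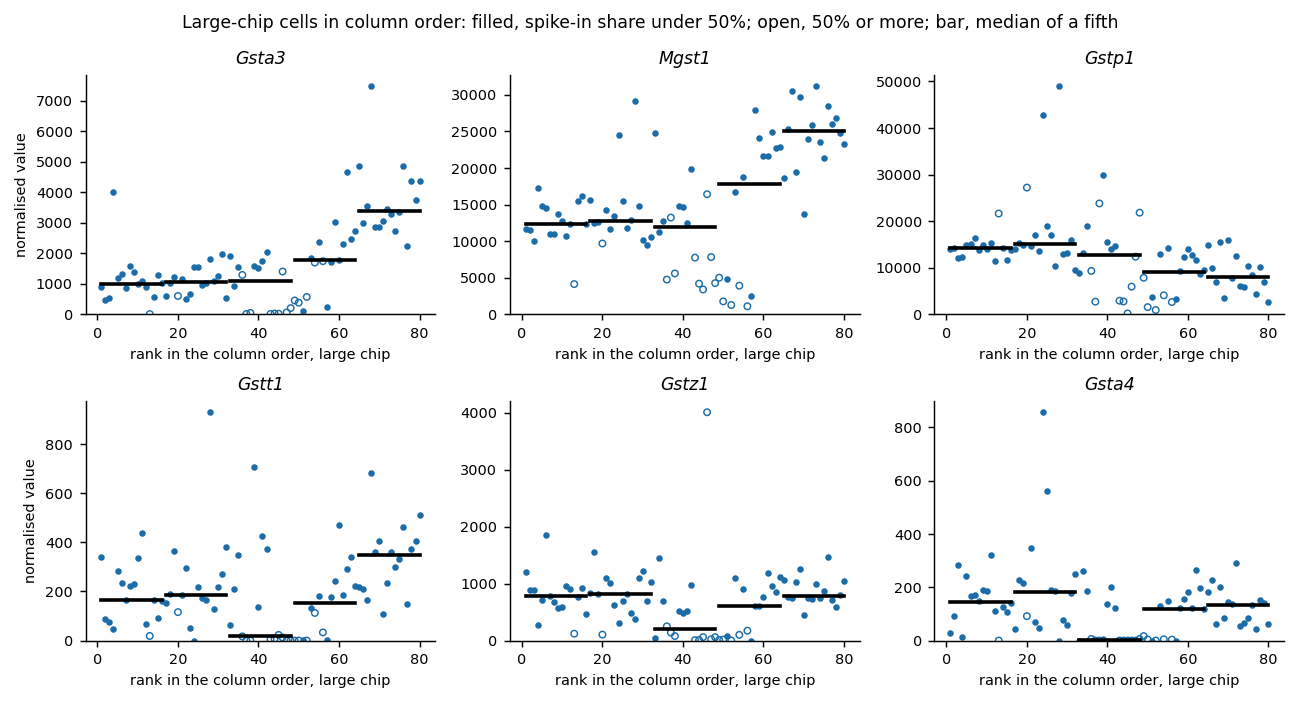
Normalised value of 6 transferase genes in the 80 large-chip cells, by rank in the deposited column order, from the periportal (left) to the pericentral end (right). Filled points are cells whose spike-in share was below 50%, open points cells at 50% or more, and bars the median of each block of 16 cells; the bars of Gsta3 and Mgst1 stand highest at the right (3398 and 25066), those of Gstp1 at the left, and Gstz1 shows no such slope outside the open points.

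The ratio of Mgst1 to Gstp1 within a cell does not change with a factor common to all genes of that cell. Whether the deposited values were scaled by such a factor is not described in the labels. Per length and with the pseudocount, Mgst1 was above Gstp1 in 0 of 16 cells in the first block, 0 in the second, 6 in the middle, 7 in the fourth and 13 in the last. The median log2 ratio was -0.65 in the first block and 1.18 in the last. In the first block it ran from -2.90 to -0.03 and in the last from -0.71 to 2.65, so the ends overlapped in a narrow range. The rho of this ratio with the order was 0.59 over the 80 cells and 0.68 over the 64 with a low spike-in share. Of this pair, the transcript that led per length was thus Gstp1 in every cell of the first 2 blocks and Mgst1 in most cells of the last. Which gene led depends on the lengths used, those of the longest annotated protein-coding transcripts (821 bases for Gstp1, 1167 for Mgst1). Undivided, Mgst1 was the higher in some first-block cells, such as large-chip cell 16 at 16169 against 11584. The ratio of Gsta3 to Gstp1 had a rho of 0.67 over the 80 cells, with Gstp1 a median of 24.5-fold above Gsta3 in the first block and 3.79-fold above it in the last. Mgst1 stayed above Gsta3, by a median of 15.8-fold in the first and 8.78-fold in the last block. In cells of low spike-in share, cut into 5 blocks of 12 or 13, Gstp1 stood a median of 25.0-, 26.6-, 18.8-, 6.28- and 3.71-fold above Gsta3 along the order.

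**Figure D3:**
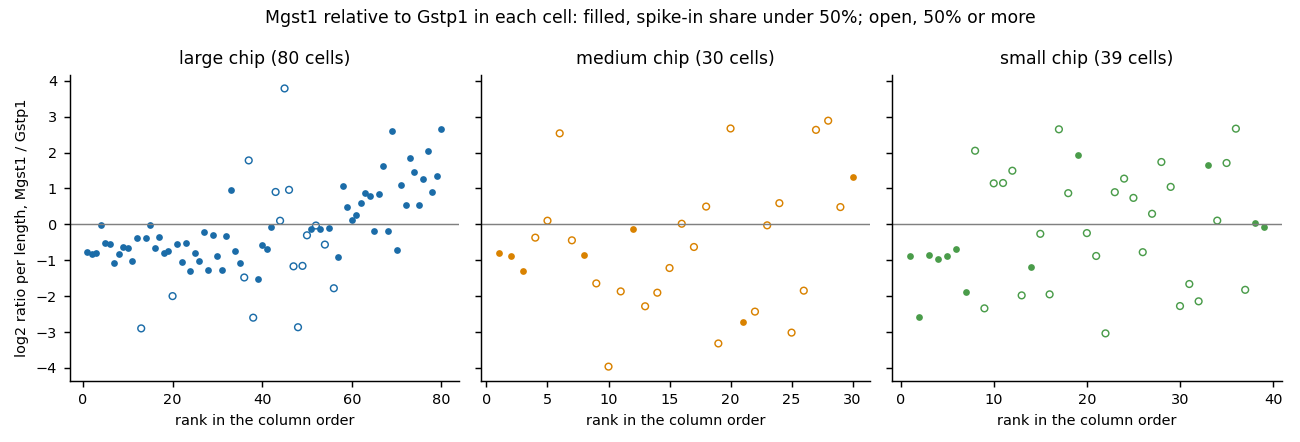
Log2 ratio of Mgst1 to Gstp1 per transcript length in each cell, by rank in the column order within the large (80 cells), medium (30) and small (39) chips. Filled points are cells whose spike-in share was below 50% and open points cells at 50% or more; in the large chip no cell of the first 2 blocks of 16 lies above the line at 0 and 13 of the last 16 do, while the open points of the medium and small chips scatter over the whole range.

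The medium and small chips gave a less clear order. Over all their cells the rho of Gsta3 was -0.15 in the medium and 0.08 in the small chip, that of Mgst1 -0.28 and -0.13, and that of Gstp1 -0.55 and -0.26. Gstp1 thus had a negative rho in all 3 chips, although 16.1% of all genes lay below its value in the small chip. Over all medium-chip cells the rho of Gsta3 and Mgst1 was negative. By means Gsta3 went the other way there, from 702 ± 773 in the first to 1246 ± 1938 in the last 6 cells (log2 0.83). The medians of these cells were 437 and 67.6. The position in the order also had a rho with the number of genes above 0 of 0.22, -0.41 and -0.20 from the large to the small chip. Holding that number constant, the medium-chip rho was 0.20 for Gsta3, -0.01 for Mgst1 and -0.41 for Gstp1, and the small-chip rho 0.24, 0.01 and -0.18. In the 7 medium-chip cells of low spike-in share it was 0.71 for Gsta3, 0.68 for Mgst1 and -0.43 for Gstp1. In the 12 such small-chip cells it was 0.06, 0.27 and -0.71. These are few cells, and the rho values describe them only. By the 2-fold rule over all cells, 1 gene, Gsta2, was higher in the last 6 medium-chip cells (16.2% of all genes). In the first 6, 4 were higher, Gsta1, Gsta4, Gstp1 and Gstz1 (51.2%). In the small chip 3 were higher in the last 8 cells, Gsta1, Gsta3 and Gsta4 (23.4%). Another 4 were higher in the first 8, Gsta2, Gstp1, Gstt1 and Gstt2 (40.7%). The log2 of Gstp1 was -1.77 in the medium and -1.21 in the small chip, or -0.97 in the latter without its highest cell. That of Gsta3 was 1.64 in the small chip, or 0.62 without its highest cell. The median rho of the 10 genes was -0.25 in the medium and -0.18 in the small chip, against -0.18 and -0.11 for all genes.

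The Mgst1 to Gstp1 ratio had a rho with the order of 0.21 in the medium and 0.23 in the small chip. Mgst1 was the higher per length in 2, 3 and 5 of 10 cells from the start to the end of the order in the medium chip, and in 4, 6 and 8 of 13 cells in the small chip. The counts ran in the direction of the large chip, and the values of all these parts overlapped.

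**Figure D4:**
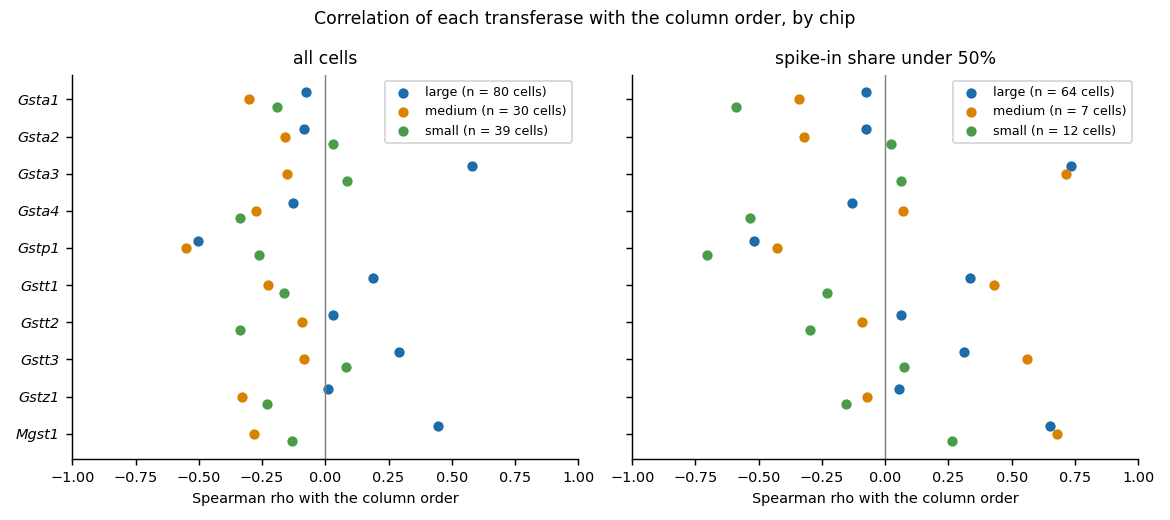
Spearman rho of each transferase gene with the column order, by chip, over all cells (left) and over cells with a spike-in share under 50% (right). Each point is 1 gene in 1 chip; Gstp1 lies left of 0 in every chip, and Gsta3 and Mgst1 lie furthest right in the large chip (0.58 and 0.45, or 0.74 and 0.65 with a low spike-in share).

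Pairs of genes were compared over the 64 large-chip cells of low spike-in share, which share a chip and differ in depth. Gsta3 and Mgst1 had the highest rho of the 45 pairs, at 0.77. Gsta3 also had a rho of 0.48 with Gstt3 and 0.40 with Gstt1. Gstp1 had its lowest rho with Mgst1, at -0.37, and with Gsta3, at -0.28. The near copies Gsta1 and Gsta2 had a rho of only 0.20 with each other, and Gsta1 had its highest, 0.44, with Gsta4. Gstz1 stayed between -0.06 and 0.21 with all other members. In the 12 small-chip cells of low spike-in share the rho of Gsta3 and Mgst1 was 0.23.

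**Figure D5:**
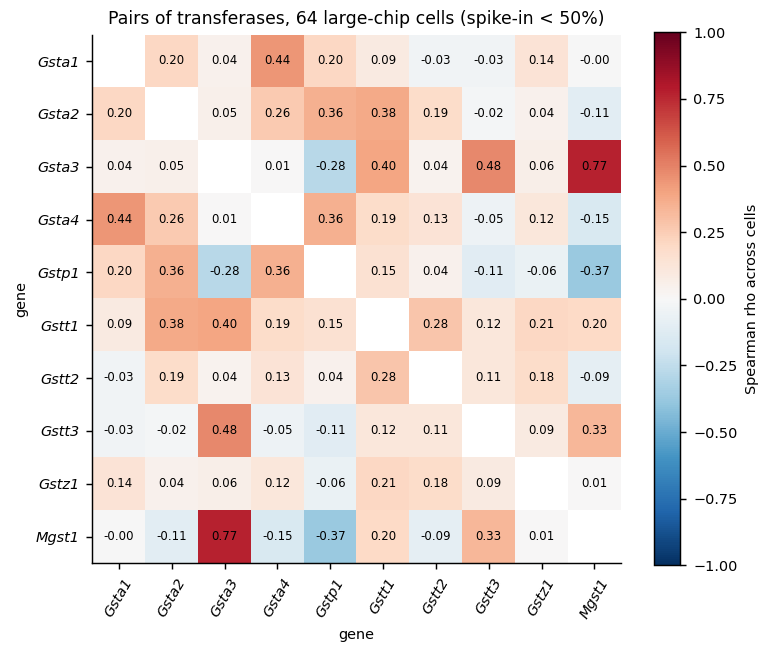
Spearman rho between the 10 transferase genes over 64 large-chip cells with a spike-in share under 50%, printed in each square and shown in colour from -1 (blue) to 1 (red). Gsta3 and Mgst1 form the strongest pair (0.77), and Gstp1 is negative with both.

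The genes most like each member were sought among 7566 genes above 0 in at least 50% of the same 64 cells. For Gsta3 they were Aldh1a1, a retinal and aldehyde dehydrogenase (rho 0.83), Csad, an enzyme of taurine synthesis (0.80), and Slco1b2, a hepatocyte uptake transporter for organic anions (0.79). For Mgst1 they were Mup2, a major urinary protein (0.78), Cyp7a1, which opens the classical route of bile acid synthesis (0.74), and Cyp2c50, a cytochrome P450 (0.71). For Gstp1 they were Apom, an apolipoprotein (0.79), Gc, the vitamin D binding protein (0.74), and Urah, an enzyme of urate breakdown (0.73). In the 12 small-chip cells of low spike-in share the rho was 0.17 for Aldh1a1, 0.67 for Csad and 0.51 for Slco1b2 with Gsta3, 0.08 for Mup2, 0.29 for Cyp7a1 and 0.03 for Cyp2c50 with Mgst1, and 0.45 for Apom, 0.76 for Gc and 0.60 for Urah with Gstp1. For Gstt1 the closest gene was the mu class transferase Gstm1 (0.59), for Gstt3 it was Gulo, the last enzyme of vitamin C synthesis (0.59), and for Gsta2 it was Gclc, the catalytic subunit that limits glutathione synthesis (0.52). For Gsta4, Gstz1, Gstt2 and Gsta1 it was Mrpl14 (0.61), Mettl5 (0.60), Myc (0.52) and Tars (0.47). Gsta4 and Gstz1 were above 0 in 60 and 63 of the 64 cells, and the sparser Gstt2 and Gsta1 in 52 and 28. All of these rho values are listed as a description only.

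Genes around the transferases were read from fixed lists with the same ends and the same rule. Of 7 mu class genes, 4 were higher in the last 16 large-chip cells and 0 in the first, with a median log2 of 1.28, against 7.44% and 21.9% of all genes. Gstm1 averaged 2781 ± 1900 and 6742 ± 4197 there, and Gstm2 2.04 ± 3.83 and 258 ± 269. The difference of these counts from those of the 10 members was not tested. Of the 5 other transferases that passed the detection rule, 1 was higher in the first cells, Gsto1, the omega class enzyme (149 ± 109 and 67.6 ± 37.8). Gstp2, the near copy of Gstp1, averaged 5.92 ± 11.3 and 3.51 ± 5.04, far below Gstp1.

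Of 9 genes of glutathione synthesis and recycling, 3 were higher in the last cells (Chac1, Glrx and Oplah) and 1 in the first (Gclm, the modifier subunit of glutamate cysteine ligase, at 66.1 ± 63.8 and 32.1 ± 26.7), beside the same 7.44% and 21.9% of all genes. Gclc averaged 279 ± 134 and 272 ± 138. Of 11 genes on a list of NRF2, Keap1 and usual NRF2 targets, 1 was higher in the last cells (Ces1g) and 2 in the first (Gclm and Keap1). The shares of all genes were again 7.44% and 21.9%. Keap1 averaged 36.7 ± 91.3 and 5.24 ± 5.35, with a rho of -0.14. Nfe2l2, which encodes NRF2, averaged 110 ± 113 and 115 ± 55.7. None of 13 peroxide removal genes and 4 transporters of conjugates reached 2-fold either way. Of the enzymes that act in tyrosine breakdown with Gstz1, Hpd, Hgd and Fah had log2 values from -0.25 to 0.64 and Tat, the aminotransferase that opens tyrosine breakdown, -0.90. Beside them Gstz1 itself stood at 0.16.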

How the data were processed

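RNA was measured in 149 cells. The unit is a signal, namely expected counts that the authors normalised before they deposited them, in 20400 rows of which 92 were spike-ins. The submitters' processing notes name CASAVA 1.8.2, Bowtie 0.12.9, RSEM 1.2.3 and mm10; the name of the table mentions SCnorm and WaveCrest, which the labels do not describe. Whole reads could not be recovered, so depth and counting error are unknown, and a 0 may be a shallow cell. The sums per cell, spike-ins included, ran from 1464730 to 5928900. This changes what a fixed value means in cells rich in spike-ins and in other cells with large sums.

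Columns were matched to samples by title, and no sample column was left unused. Chips were taken from the labels. Genes above 0 in at least 20% of cells (8813) form the background. A difference was counted at 2-fold between means plus a pseudocount of 1; the ends of the order were the first and last 16 large-chip cells. Rank correlation was Spearman's. No test was run: all cells come from 1 mouse, and no run or date is labelled. No doublet caller was run; cells with at least 3 markers of another type at 10 or more were counted, and 1 listed Kupffer marker was not matched in the table. The named genes were all 10 members, the 3 genes with the highest rho to each, and genes of comparison lists, of which 1 is not reported here. The members, lists and rules were chosen with earlier results of these data known. Alternatives covered scaling, spike-in share, cells with large sums, the size of the ends, the axis, the pseudocount, the summary, the correlation measure, the detection limit and the filter. The end ratios and a rank correlation were checked on large-chip values shuffled within each gene, with known folds planted in the last cells for the ratios. The other steps were not checked in this way. Transcript lengths and positions are from GENCODE, promoters from RefSeq (GRCm38.p6). Figures were made with matplotlib 3.10.9 and values with Python 3.11.15 (scipy 1.17.1, numpy 2.4.6, pandas 2.3.3).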

Additional observations from a re-analysis of the deposited data

Results flagged for a closer look

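For 3 alpha class genes the ends of the order differed by at least 2-fold in opposite directions in 2 chips. The ends held 16 cells in the large, 6 in the medium and 8 in the small chip. The log2 of the last over the first cells was -0.35 in the large, -5.13 in the medium and 2.03 in the small chip for Gsta1. For Gsta2 it was -0.59, 4.23 and -3.44. For Gsta4 it was -0.17, -1.73 and 2.28. The differences between chips were not tested.

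Single cells carried most of these values. Without small-chip cell 28, at 286, the small-chip value of Gsta1 was -3.17. Without medium-chip cell 19 the medium-chip value of Gsta2 was -4.08, and without small-chip cell 36, at 1346, its small-chip value was 2.98. Without small-chip cell 18 the small-chip value of Gsta4 was -2.62. Each of these 4 values changed sign when its cell was left out.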

How the results depend on the processing

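Of the results on single genes, 487 values stayed within their spread under an alternative, 85 moved by more and 12 reversed. A change of sign was counted as reversed only where the main value was at least 2-fold, or a rho of at least 0.2 in size. Smaller values that changed sign are among the others. Of the counts and medians, 52 held and 28 moved. The count of genes higher in the first 16 large-chip cells, 1, became 0 when cells were scaled to their mouse values (18.4% of all genes), 2 with a low spike-in share (26.0%), 3 with the landmark score as axis (22.8%) and 0 with medians over cells (9.67%), against 21.9% in the main setting. The count for the last 16, 1, became 2 without cells of large sums (9.0% of all genes) and 4 with medians (17.7%), against 7.44%.

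The alternatives that left out cells with other-type markers or the highest cell of each gene (in a chip or an end), and the one that combined low spike-in share with scaling, were chosen after seeing the data. Without other-type cells the count for the last 16 was 2 (9.43% of all genes), and without the highest cells the count for the first 16 was 0. The log2 of Gstt3 between the ends turned to 0.28 without cells of large sums, 4.83 with medians, 0.55 without other-type cells and 0.54 without its highest cell.

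The medium-chip median rho became 0 with a low spike-in share and -0.015 given the number of genes. With a low spike-in share the medium-chip rho turned to 0.071 for Gsta4, 0.43 for Gstt1 and 0.68 for Mgst1, and for Gstt1 it was 0.21 when also scaled.

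Large over medium, 3 genes, became 1 when scaled, 0 with a low spike-in share, 8 with medians, 0 with low spike-in share and scaling and 5 without the highest cells. Medium over large, 2, became 1 when scaled, 4 with a low spike-in share, 1 with a pseudocount of 10, 0 with medians and 0 without the highest cells. Large over small, 5, became 3 when scaled, 3 with a low spike-in share and 8 with medians. Small over large, 0, became 1 when scaled, 2 with a low spike-in share and 2 with both. Small over medium, 0, became 1 with a low spike-in share, with or without scaling. Of single genes, log2 turned to -0.12 for Gsta4 (large over medium, low spike-in share), 2.96 for Gsta2 (large over medium, medians), -0.68 for Gsta1 (medium over small, scaled) and -0.52 for Gsta2 (medium over small, low spike-in share). Within each chip Gsta1, Gsta2, Gsta4, Gstt2 and Gstt3 were above 0 in a smaller part of the cells of high spike-in share. The part of spike-in share in their levels was not tested. Chip and spike-in share moved together, which limits comparisons between chips, and read depth is unknown.

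No paired analysis was possible because the results come from no test and the cell numbers of the chips only name cells.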

Other observations

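Some cells stood out in several genes at once. Medium-chip cell 21, with 28.01% spike-ins, had the highest Gsta1 (363) and Gstp1 (80305) of all 149 cells. It also ranked 2 for Gstt3 (798), 3 for Gsta3 (7274) and 3 for Gstt1 (1230), while Gstz1 (332) ranked 83. Large-chip cell 24, the cell of the highest Gstt3, also had the highest values of the NRF2 targets Nqo1 (415) and Srxn1 (405), while its Txnrd1 (35.1) ranked 96 and its Hmox1 was at 0. It is 1 of the large-chip cells with bile duct markers, 4 of 5 at 10 or more. Small-chip cell 18, with the highest Gsta3 and Gsta4, ranked 2 for Gstz1 (3917) and 5 for the pericentral gene Cyp2e1 (22481). Cells 21 and 24 had summed values, spike-ins included, of 5662560 and 5563640. The median sum was 1927010 over medium-chip cells of low spike-in share and 1817210 over large-chip cells. The ranks are those of values not scaled to these sums. All of these cells were chosen after their values were seen.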
